A study of Mus musculus with 6 samples.

Results

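The genes described here are the medium-chain acyl-CoA synthetases Acsm1, Acsm2, Acsm3, Acsm4 and Acsm5 and the glycine N-acyltransferase genes Glyat and Keg1. They were chosen by gene symbol, and all 7 were listed among the 46095 genes of the count table. RNA sequencing was performed on primary tubular epithelial cells (PTECs) isolated from the kidneys of 6 mice at 10 weeks of age on a C57 background. In every mouse Cre recombinase driven by the Cdh16 promoter (Ksp-Cre), which is active in renal tubules, acted on floxed VHL. The 3 libraries labelled VHL-KO (replicates 1, 2 and 4) came from mice with that deletion only, and the 3 labelled VHL-KO;SETD2-KO (replicates 2, 3 and 4) came from mice in which floxed Setd2 was targeted by the same Cre. No library without the VHL deletion was analysed here. The comparison asks how loss of Setd2 changes the transcripts of VHL-deficient tubule cells.

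The Acsm enzymes sit in mitochondria and join carboxylic acids of medium chain length, and aromatic acids such as benzoate, to coenzyme A. Glycine N-acyltransferase then moves the acyl group to glycine, which gives hippurate from benzoyl-CoA and frees the coenzyme A. Liver and the proximal tubule of the kidney are the main sites of this conjugation, and the products leave the body through organic anion transporters of the proximal tubule.

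The 5 Acsm genes lie side by side on chromosome 7 of GRCm38, all on the plus strand, in the order Acsm5 (chr7:119519463-119545551), Acsm2 (chr7:119554340-119600690), Acsm1 (chr7:119607026-119662515), Acsm4 (chr7:119690026-119714565) and Acsm3 (chr7:119760923-119787513). This cluster spans 268 kb and holds 1 other protein-coding gene in full, Thumpd1, while Pdilt and Eri2 on the minus strand reach into its ends. Glyat (chr19:12633308-12653911) and Keg1 (chr19:12695786-12719902) lie on the plus strand of chromosome 19, with 41.9 kb and 2 other protein-coding genes between them. The coding sequences of the Acsm genes were 62.0% to 66.8% identical in pairs, and those of Glyat and Keg1 were 72.9% identical. No stretch of 100 bases in the longest transcript of Acsm1, Acsm2, Acsm4, Acsm5 or Glyat was found in a transcript of another gene. In Acsm3, 21.8% of such stretches were shared with Eri2, which runs on the opposite strand and overlaps 1962 exonic bases of Acsm3. Pdilt overlaps 104 exonic bases of Acsm5 and had 7 to 31 counts in each library. In Keg1, 4.63% were shared with the antisense gene Gm15962. The sources used here do not say whether counting used the strand, so reads in these overlaps may belong to either gene.

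Promoters are shown for the most abundant member (Acsm2, first of 2 listed starts), the member with the widest spread between libraries (Acsm3), the member that passed the test in the 6 libraries (Acsm5) and the more abundant glycine N-acyltransferase gene (Keg1). Each runs from 250 bases before to 50 bases after the transcription start given by RefSeq on GRCm38.p6, plus strand, in the windows chr7:119554090-119554389, chr7:119760673-119760972, chr7:119526015-119526314 and chr19:12695540-12695839. The gene spans given above came from GENCODE, and RefSeq places the starts of Acsm5 and Acsm1 inside those spans. The windows of these genes (that of Acsm1 is not shown) thus do not lie at the starts given above. Capitals mark the motif letters that were searched on both strands.
Acsm2: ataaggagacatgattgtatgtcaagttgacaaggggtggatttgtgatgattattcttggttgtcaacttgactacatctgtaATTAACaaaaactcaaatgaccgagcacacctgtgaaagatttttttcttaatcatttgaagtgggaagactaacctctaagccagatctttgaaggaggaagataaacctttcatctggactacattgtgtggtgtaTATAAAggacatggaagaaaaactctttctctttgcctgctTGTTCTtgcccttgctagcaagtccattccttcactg
Acsm3: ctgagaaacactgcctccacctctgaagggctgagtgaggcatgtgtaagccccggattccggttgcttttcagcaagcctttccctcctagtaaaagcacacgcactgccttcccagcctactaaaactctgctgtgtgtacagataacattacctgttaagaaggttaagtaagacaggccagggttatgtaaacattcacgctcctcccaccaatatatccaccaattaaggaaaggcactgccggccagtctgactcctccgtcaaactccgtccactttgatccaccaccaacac
Acsm5: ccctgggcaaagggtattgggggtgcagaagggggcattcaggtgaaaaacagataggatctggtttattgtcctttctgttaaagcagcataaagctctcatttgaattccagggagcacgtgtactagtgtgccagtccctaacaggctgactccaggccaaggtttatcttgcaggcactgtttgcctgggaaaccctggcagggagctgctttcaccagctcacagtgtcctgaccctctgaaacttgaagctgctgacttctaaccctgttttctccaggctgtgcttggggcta
Keg1: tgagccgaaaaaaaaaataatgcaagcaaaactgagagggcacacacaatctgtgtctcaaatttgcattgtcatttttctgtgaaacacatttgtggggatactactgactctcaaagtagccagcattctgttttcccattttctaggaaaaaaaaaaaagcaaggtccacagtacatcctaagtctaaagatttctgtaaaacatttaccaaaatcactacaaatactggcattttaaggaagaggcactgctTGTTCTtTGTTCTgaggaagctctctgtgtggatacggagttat

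The first motif searched was the half-site of HNF1, a factor of proximal tubule and liver genes, with the letters GTTAAT, which 7.10% of 32851 promoter windows of this length held. A core of the sites of HNF4, another such factor, was searched as CAAAGTCCA, which 0.475% of the windows held. The half-site shared by androgen and glucocorticoid receptors has the letters AGAACA, and 19.0% of the windows held it. The TATA box was searched as TATAAA and occurred in 13.6% of the windows. The first Acsm2 promoter held the HNF1 half-site on the reverse strand at base -166 from the start, the TATA box at -28 and the steroid receptor half-site at 14 on the reverse strand. Keg1 held the steroid receptor half-site at 7 and 14, both on the reverse strand. The other 6 of the 8 windows held none of these letters. All 7 members were matched to a window by symbol.

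The libraries held 11168552 to 17883466 counts. Levels are given as CPM, counts scaled to library totals and edgeR's TMM factors, and a signal of 3 counts, the smallest taken as detectable, equalled 0.168 to 0.269 CPM before that scaling. Setd2 was checked first. It had 71.3, 73.8 and 12.3 CPM in VHL-KO 1, 2 and 4 (libraries are named by label and replicate) and 79.5, 57.3 and 89.5 CPM in those labelled VHL-KO;SETD2-KO 2, 3 and 4. Setd2 transcripts were thus not fewer under the second label, which goes against it, and every direction below is a direction between labels. Counts of a whole gene do not show whether its floxed exons are missing. Vhl stood at 11.8 to 25.8 CPM in all 6 libraries. The library labelled VHL-KO 4 stood apart from the others, with a Spearman correlation of 0.717 to 0.765 in its 5 pairs against 0.937 to 0.986 in the other 10 pairs and mitochondrial transcripts at 11.3% of counts against 25.9% to 36.4%. The library labelled VHL-KO;SETD2-KO 3 was the only one with Xist, at 11704 counts against 0 to 4, and its 4 Y-linked genes summed to 1 count against 260 to 3283. Results are therefore given with and without these libraries.

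With all 6 libraries, the 6 members that could be tested had negative log2 fold changes (libraries labelled VHL-KO;SETD2-KO against those labelled VHL-KO), and only Acsm5 passed the test at an unadjusted p. In a comparison of 2 against 2 libraries without those that stood apart, chosen after the data were seen, all 6 fell at an adjusted p, beside 7.89% of all genes. Calls required a p under 0.05 in edgeR's quasi-likelihood test and a fold change of at least 1.5. Acsm4 had 0 counts in every library and was not tested. A count of 0 allows up to 3 counts in each library.

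Acsm5, a mitochondrial acyl-CoA synthetase of the same family, had 131, 137 and 71.5 CPM in VHL-KO 1, 2 and 4 as labelled. It had 45.8, 38.3 and 59.2 CPM in VHL-KO;SETD2-KO 2, 3 and 4 as labelled. The groups did not overlap, and VHL-KO 4 was the lowest of the first group. Acsm5 fell from 113 ± 36.3 to 47.8 ± 10.6 CPM (SD, n = 3). Its log2 fold change was -1.25 (SE 0.43, unadjusted p = 0.0199, adjusted p = 0.625 by edgeR's quasi-likelihood test). Of the 14611 genes tested, 4.68% fell by this unadjusted rule, and 1 of 6 tested members did. Acsm5 stayed past the threshold when the library labelled VHL-KO 4 (log2 fold change -1.49) or VHL-KO;SETD2-KO 4 (-1.42) was left out, and not when any of the other 4 was.

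Acsm2, the most abundant member, activates benzoate and other medium-chain acids and is known as a proximal tubule gene. It had 5708, 4867 and 1694 CPM in the VHL-KO libraries 1, 2 and 4 and 2168, 1123 and 2370 CPM in those labelled VHL-KO;SETD2-KO 2, 3 and 4. The groups overlapped because VHL-KO 4 lay below VHL-KO;SETD2-KO 2 and 4. The means were 4090 ± 2116 and 1887 ± 669.6 CPM (SD, n = 3), with a log2 fold change of -1.12 (SE 0.60, adjusted p = 0.625). Acsm2 gave 82.3% to 88.1% of all Acsm counts in each library, so the summed Acsm level is for the most part that of Acsm2.

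Acsm1, which acts on butyrate and other short to medium acids, had 169.7, 127 and 182 CPM in VHL-KO 1, 2 and 4, and 66.0, 113 and 77.5 CPM in VHL-KO;SETD2-KO 2, 3 and 4. The groups did not overlap, and both libraries that stood apart were the highest of their group. The log2 fold change was -0.90 (SE 0.41, unadjusted p = 0.0595, adjusted p = 0.625 from edgeR).

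Acsm3, first found as a gene expressed in the kidney of hypertensive rats, varied most. It had 923, 753 and 76.6 CPM in VHL-KO 1, 2 and 4. In those labelled VHL-KO;SETD2-KO it had 227 CPM in replicate 2, 0.787 CPM (14 counts) in replicate 3 and 276 CPM in replicate 4. The lowest library of each group was the one that stood apart, and the log2 fold change of -1.80 had an SE of 1.49 (unadjusted p = 0.262, adjusted p = 0.700 from edgeR). In limma-voom it was -3.34 (adjusted p = 0.692). Eri2, the gene that overlaps Acsm3, had 97 counts in VHL-KO;SETD2-KO 3 and 18 to 153 counts in the other libraries. Acsm3 is known as a gene with higher expression in male than in female mouse kidney, and Xist was high in that library alone. The part of Xist status in the Acsm3 level was not tested.

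Glyat, the glycine N-acyltransferase itself, had 573, 482 and 146 CPM in VHL-KO 1, 2 and 4 and 269.6, 294 and 279 CPM in those labelled VHL-KO;SETD2-KO 2, 3 and 4. Its level was near the same in the second group, and VHL-KO 4 lay below all 3 of them. The log2 fold change was -0.51 (SE 0.55, 95% confidence interval -1.77 to 0.75, adjusted p = 0.760). Keg1, a kidney gene whose product is related to glycine N-acyltransferase, had 1686, 1837 and 1328 CPM against 916, 819 and 1106 CPM. Its groups did not overlap, and its log2 fold change was -0.77 (SE 0.42, unadjusted p = 0.106, adjusted p = 0.625). Of the 14611 genes tested, 11.0% had every VHL-KO;SETD2-KO library below every VHL-KO library, and 3 of the 6 tested members (Acsm1, Acsm5 and Keg1) did.

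**Figure D1:**
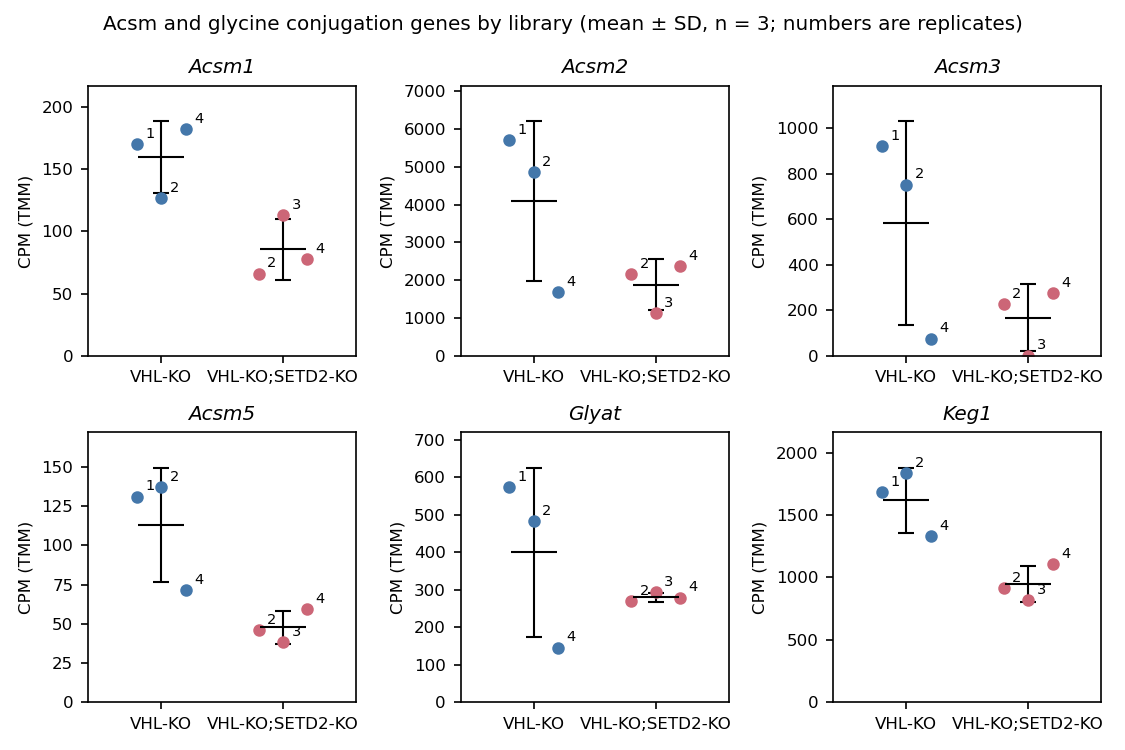
Level of each detected member in CPM (counts scaled to library totals and TMM factors, linear axes from 0) in the 3 libraries labelled VHL-KO and the 3 labelled VHL-KO;SETD2-KO, with replicate numbers beside the points and lines for the mean ± SD. Acsm1, Acsm5 and Keg1 do not overlap between labels, while VHL-KO 4 lies within or below the second group for Acsm2, Acsm3 and Glyat.

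The median log2 fold change of the 6 tested members was -1.01, from -1.80 to -0.51, beside a median of 0.0094 over all tested genes. All 6 values were negative, beside 49.5% of all genes, and 12.0% of all genes had a value of -1.01 or less. The members were chosen with earlier results of these data known, so their contrast with all genes is not independent support. No member passed the adjusted p in edgeR (1 at the unadjusted p), DESeq2 or limma-voom, and 0.00684% of all genes (1 gene) did so in edgeR. No member was called higher by edgeR, DESeq2 or limma-voom, beside 2.66% of all genes in edgeR. DESeq2 called 2 members lower at an unadjusted p, Acsm2 (log2 fold change -1.15, adjusted p = 0.295) and Acsm5 (-1.27, adjusted p = 0.164), beside 4.44% of all genes it tested.

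Leaving out the libraries that stood apart changed the calls. Without VHL-KO 4, 5 of the 6 members fell at an unadjusted p, beside 7.15% of all genes. These were Acsm1 (log2 fold change -0.80, SE 0.27), Acsm2 (-1.49, SE 0.37), Acsm5 (-1.49, SE 0.20), Glyat (-0.91, SE 0.17) and Keg1 (-0.90, SE 0.22), with adjusted p from 0.0776 to 0.187 in edgeR. Acsm3 had a log2 fold change of -2.33 with an SE of 1.56 (unadjusted p = 0.188, edgeR). Without VHL-KO;SETD2-KO 3 alone no member was called by edgeR, at an adjusted or an unadjusted p.

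Without both libraries, 2 against 2, which was chosen after the values were seen, all 6 members fell at an adjusted p, beside 7.89% of all genes. The log2 fold changes were -1.05 for Acsm1, -1.22 for Acsm2, -1.74 for Acsm3, -1.35 for Acsm5, -0.94 for Glyat and -0.80 for Keg1, with SE from 0.13 to 0.17 and adjusted p from 0.00597 to 0.0155 in edgeR. The levels in VHL-KO;SETD2-KO 2 and 4 were 30.0% of those in VHL-KO 1 and 2 for Acsm3, 39.2% for Acsm5, 42.9% for Acsm2, 48.5% for Acsm1, 52.0% for Glyat and 57.4% for Keg1.

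**Figure D2:**
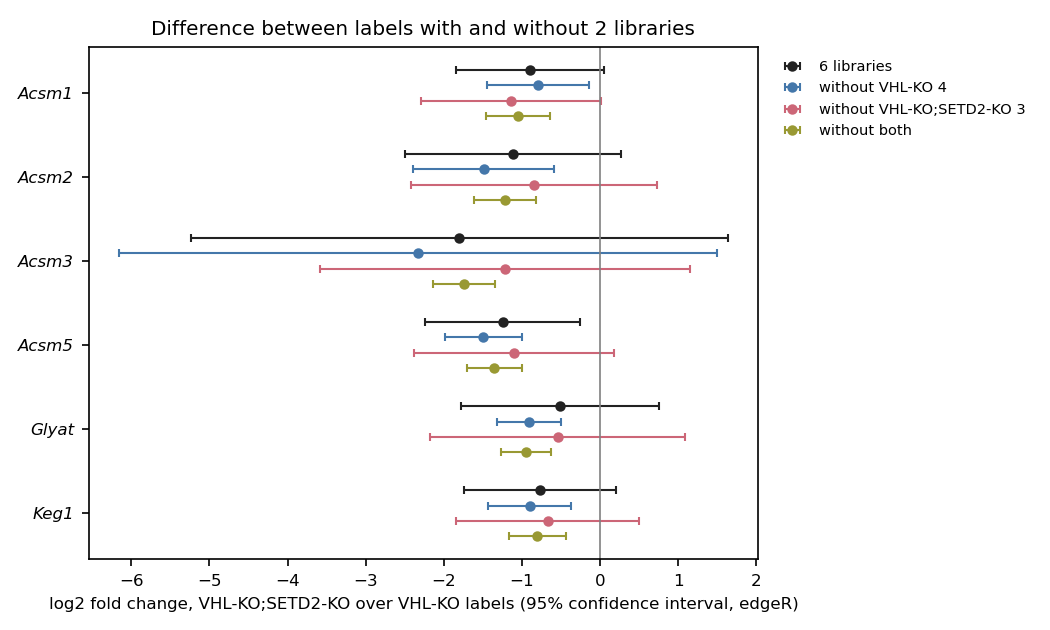
Log2 fold change of each member between the labels (VHL-KO;SETD2-KO against VHL-KO), with its 95% confidence interval from edgeR for all 6 libraries, without VHL-KO 4, without VHL-KO;SETD2-KO 3 and without both. Every point lies below 0, and the intervals of all 6 members lie wholly below 0 when both libraries are left out.

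The members did not move together in the libraries that stood apart. In VHL-KO 4, taken as a percentage of the mean of VHL-KO 1 and 2, Acsm3 stood at 9.14%, Glyat at 27.6%, Acsm2 at 32.0%, Acsm5 at 53.3%, Keg1 at 75.4% and Acsm1 at 123%. In VHL-KO;SETD2-KO 3, taken as a percentage of the mean of VHL-KO;SETD2-KO 2 and 4, Acsm3 stood at 0.313%, Acsm2 at 49.5%, Acsm5 at 72.9%, Keg1 at 81.0%, Glyat at 107% and Acsm1 at 157%. Acsm3 was lowest and Acsm1 highest in both, although the genes are neighbours in one cluster.

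Ratios within a library showed the same spread. There were 16.2 and 15.5 Acsm3 counts per 100 Acsm2 counts in VHL-KO 1 and 2 and 10.5 and 11.6 in VHL-KO;SETD2-KO 2 and 4, but 4.52 in VHL-KO 4 and 0.0701 in VHL-KO;SETD2-KO 3. There were 25.3 to 35.8 Glyat counts per 100 Keg1 counts in 5 libraries, with both labels in that range, and 11.0 in VHL-KO 4.

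Levels were compared between members as CPM per kilobase of transcript. Acsm2 has transcripts from 2051 to 6738 bases, which put its mean under the VHL-KO label between 607 and 1994 CPM per kilobase, and Keg1 stood at 965 ± 156 (SD, n = 3). The order of these 2 members thus depends on the transcript taken. Below them came Acsm3 at 212 to 228, Glyat at 142, Acsm1 at 76.5 and Acsm5 at 38.0 to 45.4 CPM per kilobase. The libraries of Acsm3, Glyat and Acsm1 overlapped. Those of Acsm5 (24.0 to 55.0) lay below those of Acsm1 (60.8 to 87.2) but overlapped those of Acsm3 (from 27.8) and Glyat (from 51.7). In libraries labelled VHL-KO;SETD2-KO the means of Keg1 and Acsm2 were again the highest, at 565 and 280 to 920 CPM per kilobase. Glyat at 99.5, Acsm3 at 60.9 to 65.6, Acsm1 at 41.0 and Acsm5 at 16.0 to 19.2 CPM per kilobase followed. The libraries of Acsm3 overlapped those of Glyat, Acsm1 and Acsm5.

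The segment that makes glycine conjugates was followed by its markers. The 10 proximal tubule markers, none at 0, summed to 14237, 13859 and 26080 CPM in VHL-KO 1, 2 and 4 and to 6030, 8437 and 7313 CPM in VHL-KO;SETD2-KO 2, 3 and 4, and 4 of the 10 fell at an unadjusted p (Slc34a1, Slc22a6, Aqp1 and Hnf4a), beside 4.68% of all genes. The log2 fold changes of 9 markers were negative, and that of Slc5a12 was 0.50 (SE 0.75). The 7 members summed to 9190, 8203 and 3498 CPM against 3692, 2387 and 4168 CPM. Per 100 CPM of proximal tubule markers there were thus 64.6, 59.2 and 13.4 CPM of members under the VHL-KO label and 61.2, 28.3 and 57.0 CPM in those with the other label, values that overlapped between labels. In VHL-KO 4 the sum of the markers was the highest, and Slc34a1 gave 14181 of its 26080 CPM. Without Slc34a1 the sum was still the highest there, at 11899 CPM against 9267 and 9109 CPM in VHL-KO 1 and 2. Slc5a2, Slc22a6, Aqp1, Miox and Hnf4a were, like Slc34a1, the highest of their label in VHL-KO 4. Lrp2, Cubn, Slc5a12 and Slc7a13 were instead the lowest of their label there, as were 5 of the members. With Slc34a1 left out of the sum, a choice made after the values were seen, the members stood at 99.2, 90.1 and 29.4 CPM per 100 CPM of the other 9 markers under the VHL-KO label and at 96.0, 43.6 and 85.5 CPM under the VHL-KO;SETD2-KO label. In bulk samples fewer cells of a type and less RNA per cell cannot be told apart.

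Markers of other kidney cells were present as well. Among podocyte markers, Nphs1 (log2 fold change 1.09, SE 0.44) and Wt1 rose at an unadjusted p. Nphs1 had 99.7 to 156 CPM under the VHL-KO label and 185 to 342 CPM under the VHL-KO;SETD2-KO label, and Wt1 had 19.6 to 44.7 and 58.1 to 114 CPM, both without overlap. The 5 endothelial markers, none at 0, summed to 912 to 1531 and 1166 to 3598 CPM, with 0 of 5 past that threshold in edgeR. The 5 intercalated cell markers, none at 0, summed to at most 45.2 CPM under the VHL-KO label and at least 51.8 CPM under the other, and 3 of 5 rose, beside 2.66% of all genes. Nphs1, Wt1 and the endothelial sum were highest in VHL-KO;SETD2-KO 2 and 4. The part of these cells in the levels of the members was not tested.

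The genes around the pathway were taken from 6 lists with 74 genes, of which 64 could be tested. The lists were chosen with earlier results of these data known, so the shares below are not independent support. In all, 15 of the 64 (23.4%) fell and 0 rose at an unadjusted p in edgeR, beside 4.68% and 2.66% of all genes. None passed the adjusted p in edgeR, and 3 did in DESeq2. The median log2 fold change over the 64 genes was -0.50.

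Acyl-CoA synthetases of other families activate acetate and longer acids. Of 14 tested, 3 fell, and the list median was 0.21. Acss2, which makes acetyl-CoA from acetate, had 205 to 490 CPM under the VHL-KO label and 82.0 to 108 CPM under the VHL-KO;SETD2-KO label (log2 fold change -1.65, SE 0.48). Aacs, which activates acetoacetate, had a log2 fold change of -1.80 (SE 0.54), and Acsf3, which activates malonate in mitochondria, of -1.51 (SE 0.62). Acsf3 had 155 CPM in VHL-KO 4 and 38.7 and 40.8 CPM in the other libraries of that label.

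The other acyl-CoA N-acyltransferases conjugate bile acids and fatty acids, and 0 of 4 tested passed the threshold in edgeR. The most abundant were Acnat2, with 69.4 to 83.3 and 33.6 to 186 CPM, and Acnat1, with 9.52 to 30.8 and 18.8 to 82.6 CPM, each highest in VHL-KO;SETD2-KO 3. Of the acyl-CoA thioesterases, which split acyl-CoA back into acid and coenzyme A, 0 of 11 tested passed, with a median of -0.27. Acot12 (log2 fold change -0.96, SE 0.49) and Acot13 (-0.26, SE 0.38) had the highest means over all 6 libraries. Of the 11 tested genes of coenzyme A synthesis and salvage only Coasy, the enzyme of the last steps of its synthesis, fell (log2 fold change -1.97, SE 0.58). Coasy had 578 CPM in VHL-KO 4, against 176 and 185 CPM in the other libraries of that label and 64.5 to 90.9 CPM under the VHL-KO;SETD2-KO label.

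Glycine is the amino acid that the conjugation uses. Of 15 tested genes of its supply and use, 6 fell, with a list median of -0.69. Shmt2, which makes glycine from serine in mitochondria, had a log2 fold change of -1.87 (SE 0.63), and Amt, a part of the glycine cleavage system, of -1.16 (SE 0.45). Gnmt, which methylates glycine, had -2.12 (SE 0.71). The glycine transporter gene Slc6a9 had -1.76 (SE 0.48), and Slc6a18 and Slc6a20b, whose products take up neutral and imino acids at the brush border, had -1.14 (SE 0.45) and -1.08 (SE 0.40). All 6 were highest in VHL-KO 4, the library in which 5 of the 6 detected members were the lowest of their label.

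Organic anion transporters take hippurate and like acids from blood into tubule cells and on into urine. Of 9 tested, 5 fell, with a list median of -1.22. Slc22a6, the main basolateral uptake carrier (OAT1) and also one of the proximal tubule markers above, had 1093, 1041 and 2493 CPM against 441, 302 and 468 CPM (log2 fold change -1.93, SE 0.53). Slc22a7 had -2.28 (SE 0.70), and the urate carrier Slc22a12 had -1.90 (SE 0.52). The apical phosphate and anion carriers Slc17a1 and Slc17a3 had -1.22 (SE 0.39) and -1.37 (SE 0.43). Their levels under the VHL-KO label lay close together, at 467 to 533 and 609 to 757 CPM. Without both libraries that stood apart, 33 of the 64 list genes fell and 2 rose at an unadjusted p in edgeR, beside 10.4% and 13.4% of all genes.

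**Figure D3:**
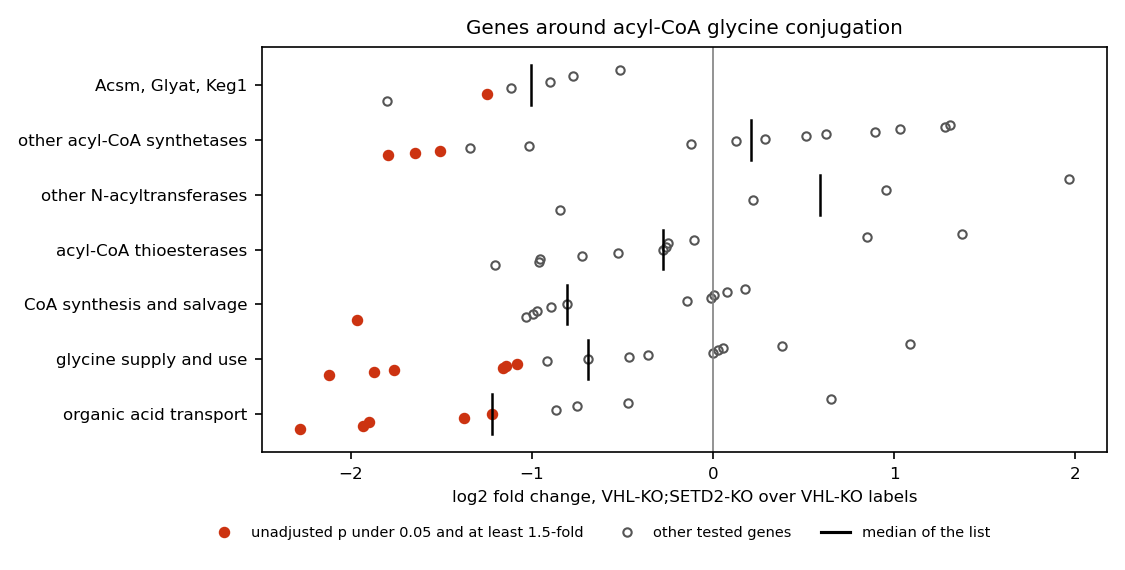
Log2 fold change between the labels (VHL-KO;SETD2-KO against VHL-KO, 6 libraries, edgeR) of the 6 tested members and of the tested genes of 6 lists, with filled points for genes past an unadjusted p of 0.05 and a 1.5-fold change and a bar for each list's median. Filled points lie below 0 only, with 6 among glycine genes and 5 among organic acid transporters.

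The genes whose levels over the 6 libraries were most like the mean of the standardised member levels were, among 9508 genes, Slc1a1, a glutamate transporter gene (Pearson r = 0.999), Gclm of glutathione synthesis (0.997), Fhl1 (0.994), Ybx1 (0.990), Pdk3 (0.989) and Acad9 (0.987). Without VHL-KO 4 only 2 of these 6, Slc1a1 and Gclm, were again among the first 6. The 6 points share the libraries' depth and cell make-up, and the correlations describe these libraries only.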

How the data were processed

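RNA-seq libraries of PTECs from 6 mice were grouped by the labels into VHL-KO and VHL-KO;SETD2-KO. The authors extracted total RNA, prepared directional libraries, sequenced paired ends and deposited raw counts per gene symbol, without normalization. The submitters' processing notes name HISAT2 2.0.4 and GRCm38. The counting program, the annotation and the use of strand are not given in the sources used here. Unused per-sample columns: 0.

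TMM factors were calculated from the deposited counts in R 4.3.3. Of 46095 genes, 14611 were kept by filterByExpr and entered a two-sided quasi-likelihood F test (edgeR 4.0.16) between the genotype labels, without further covariates. All p-values are unadjusted or adjusted over all genes tested by the Benjamini-Hochberg method. SE was the log2 fold change divided by the square root of F. Other tools were DESeq2 1.42.0 and limma 3.58.1, named where used, and edgeR otherwise gave each adjusted p. Only the edgeR fit was tested on simulated data, with the same dispersion for every gene and no library that stood apart. That test does not show how the fit behaves with libraries like those here. Totals were 11168552 to 17883466 counts, and the floor of 3 counts speaks for counting error alone, as PCR copies could not be told from molecules. Alternatives were RLE factors, DESeq2, limma-voom, other filters, library sizes without mitochondrial genes (found by their chromosome), a 2-fold threshold, a replicate block and each library left out in turn. Having seen the data, a fit of 2 against 2 libraries and one with crossed pairs were added. Positions came from GENCODE M21 and promoters from RefSeq.

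The members and all lists were chosen with earlier results of these data known. Named were all members, from each list the genes past the unadjusted threshold or else the 2 with the highest mean CPM, and the 6 genes most like the members. Replicates 2 and 4 share only their number between labels.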

Additional observations from a re-analysis of the deposited data

How the results depend on the processing

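Of 96 values of the 6 tested members under 16 other settings, 92 kept a negative log2 fold change. The other 4 were Acsm3 and Glyat with the replicate number as a block (0.056 and 0.048) and with crossed pairs (0.056 and 0.048). In both fits VHL-KO 1 and VHL-KO;SETD2-KO 3 had no partner, so they added nothing to the log2 fold change between labels. Both fits thus compared the same libraries, replicates 2 and 4 of each label, and their near-equal values are not separate checks. VHL-KO 4, which stood apart, was in both fits, and its part in the change of sign was not tested. The labels do not say that mice were paired, and the deviations of same-numbered libraries correlated at 0.16 (number 2) and -0.32 (number 4). The 1 member called lower became 2 in DESeq2 and 2 in limma-voom, 0 with the replicate block and 0 with crossed pairs, 0 to 5 with each library left out, and 6 in the 2 against 2 fits of edgeR and DESeq2, where 6 also passed the adjusted p. The members called in limma-voom were Acsm5 and Acsm1 (limma-voom unadjusted p = 0.049 for Acsm1, adjusted p = 0.692), beside 486 of 14611 genes.

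Of all genes, 684 were called lower, but 1123 in DESeq2, 54 with the block, 85 with crossed pairs, 206 to 1078 with each library left out, and 1531 (edgeR) and 1396 (DESeq2) at 2 against 2. Called higher were 388, but 634 with no filter, 93 with the block, 143 with crossed pairs, 179 to 1243 with each library left out, and 1976 and 1654 at 2 against 2. The adjusted p was passed by 1 gene, but by 49 in DESeq2, 2 with no filter, 0 with at least 10 counts in every library, 0 to 1 with each library left out, and 2474 and 2446 at 2 against 2.

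Of the list genes, of which 64 were tested in the 6 libraries and 62 to 71 in the other settings, 15 were called lower, but 1 with the block, 1 with crossed pairs, 8 to 20 with each library left out, and 33 in both 2 against 2 fits. Called higher were 0, but 1 in DESeq2, 1 with no filter, 0 to 3 with each library left out, and 2 in both 2 against 2 fits. With 3 libraries a label, and 2 of the 6 apart from the rest, the SE of a member's log2 fold change was 0.41 to 1.49.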

Other observations

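Acsm3 was in a group of genes with very few transcripts in VHL-KO;SETD2-KO 3 (libraries are named by label and replicate), a group picked for these values. The 3093 genes with a mean of at least 50 CPM in VHL-KO;SETD2-KO 2 and 4 were ranked by the ratio of VHL-KO;SETD2-KO 3 to that mean. A small constant was added to both levels, and the order of the first genes depends on it, as some had 0 CPM. Ranked so, Acsm3 came first, at 0.787 against 251 CPM. Next were the Y-linked gene Ddx3y (0 against 93.1 CPM), Slco1a1, an organic anion transporter gene (0.618 against 208 CPM), the muscle myosin gene Myh4 (0 against 53.3 CPM) and Slc7a13, an amino acid transporter gene of the last part of the proximal tubule (2.42 against 295 CPM). The cytochrome P450 genes Cyp2j13 (2.25 against 232 CPM) and Cyp4a12a (8.43 against 142 CPM), the glucuronosyltransferase gene Ugt2b37 (1.07 against 54.3 CPM) and the methyltransferase gene Inmt (11.4 against 266 CPM) followed. Slco1a1 and Cyp4a12a are known as genes with male-biased expression in mouse kidney.

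Slco1a1 followed Acsm3 over all 6 libraries (Pearson r = 1.00 over 6 libraries among 9508 genes, a description with no test). It had 801, 700.3 and 62.6 CPM in VHL-KO 1, 2 and 4 and 178, 0.618 and 237 CPM in those labelled VHL-KO;SETD2-KO 2, 3 and 4. Acsm3 and Slco1a1 were thus also both low in VHL-KO 4, where Xist had 0 counts and the 4 Y-linked genes summed to 260 counts. Slc7a13 (r = 0.991) and Slc22a28 (r = 0.986) came next.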
